A study of Rattus norvegicus with 21 samples.

Results

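The potassium channel genes described here are all genes on a rat expression array whose symbol starts with Kcn. Each gene was read through 1 probe set, which was, of those annotated with a single symbol, the one brightest on average over the 21 arrays. This gave 75 of the 14217 genes with such a probe set: 31 pore-forming genes of voltage-gated channels, 15 of inward rectifiers (Kcnj), 11 of two-pore channels (Kcnk), 5 of channels opened by calcium or sodium, and 13 auxiliary subunits. The choice used names and not measured differences.

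The samples were forebrain astrocytes of Sprague Dawley rats, in 7 groups of 3 biological replicates. Fresh P1 and fresh P7 cells were bound to a dish coated with antibody to the integrin ITGB5 at postnatal day 1 or 7 and lysed without culture. HBEGF P1 and HBEGF P7 cultures were cells panned at those ages and then grown for 7 days without serum in 5 ng/ml HBEGF, a ligand of the EGF receptor. Serum P7 cultures were panned P7 cells grown for 7 days in 10% foetal calf serum, and withdrawn P7 cultures were such cells that were washed and kept for 7 more days in HBEGF medium. MD cultures came from P1 forebrain by the method of McCarthy and de Vellis, which uses no panning, in 10% serum for 7 days. For the HBEGF P7 cultures 1 label gives the age as P1 while title and source give P7, and the title was followed. The labels do not say whether the tissue of several pups was pooled.

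Potassium channels let potassium ions leave or enter a cell along their gradient. Inward rectifiers and two-pore leak channels hold the resting potential of astrocytes close to the potassium equilibrium potential, and the inward rectifier encoded by Kcnj10, alone or paired with the product of Kcnj16, takes up potassium released by active neurons. Voltage-gated channels open on depolarisation. Among them the Kv4 channels, encoded by the Kcnd genes, carry a fast, rapidly inactivating A-type current, and they work in complexes with the calcium-binding KChIP proteins (Kcnip genes) and the membrane proteins DPP6 and DPP10.

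Levels are given as log2 of the deposited intensity, and differences as log2 changes with the standard error (SE) of the limma fit. A change counts as called where the adjusted p was under 0.05 (Benjamini-Hochberg over all probe sets of a comparison) with a size of at least 1 on the log2 scale, which is 2-fold. Each gene's level is compared only with itself across groups and with the median of its array, which lay between 7.00 and 7.19, because probe sets of different genes bind with different strength. Of 17 measured astrocyte markers, between 14 (MD cultures) and 17 (fresh P7 cells) lay above the array median in a group. The 13 measured microglial markers were all below it in fresh P1 cells and in MD, HBEGF P1 and serum P7 cultures, while 6 were above it in fresh P7 cells, 2 in HBEGF P7 and 8 in withdrawn P7 cultures. The summed level of 12 fibroblast and meningeal markers was between 12.28 and 14.12 in fresh cells, 15.87 and 16.93 in serum P7 and 16.49 and 16.96 in withdrawn P7 cultures. The third array of the serum P7 group stood apart in the summed level of the 10 measured oligodendrocyte markers, 14.38 against 12.16 and 12.64. A sum is log2 of the added intensities, so the brightest genes weigh most. Of the 10, Cldn11 had the widest spread in that group (mean 11.97, SD 1.97), while Cnp had an SD of 0.02 and Mbp a mean of 6.36. The sum is therefore not a count of oligodendrocytes. Where leaving this array out changed a call or a sign of a gene followed in all comparisons, the value without it is given. The second HBEGF P7 array stood apart in the fibroblast and meningeal sum, 13.10 against 15.28 and 15.69. It also had the highest oligodendrocyte progenitor sum of its group, 15.30 against 14.75 and 14.33. The third HBEGF P7 array had the highest microglial sum of the group, 12.12 against 9.76 and 9.49. In RNA from many cells, fewer cells of a type and less RNA per cell cannot be told apart.

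Most potassium channel genes gave low signals. Of the 75, 51 (68%) had a mean below the array median in each of the 7 groups, against 25.7% of all genes, and 47 were below it on each of the 21 arrays. Another 20 were above it in some groups, and 4 were above it in all: Kcnh3, a pore-forming subunit of the ELK subfamily; Kcnip3, a KChIP; Kcnab2, a Kv beta subunit; and Kcnmb4, a beta subunit of the large-conductance calcium-activated (BK) channel. The genes below the median in all groups were, among voltage-gated genes, Kcna3, Kcna4, Kcna5, Kcna6, Kcnb2, Kcnc1, Kcnc2, Kcng2, Kcng3, Kcnh1, Kcnh2, Kcnh4, Kcnh5, Kcnh6, Kcnh7, Kcnh8, Kcnq1, Kcnq3, Kcns1, Kcns2, Kcnv1 and Kcnv2. Among inward rectifiers they were Kcnj1, Kcnj2, Kcnj3, Kcnj4, Kcnj5, Kcnj6, Kcnj8, Kcnj9, Kcnj10, Kcnj11, Kcnj12, Kcnj13 and Kcnj15. Among two-pore genes they were Kcnk1, Kcnk4, Kcnk5, Kcnk9, Kcnk12, Kcnk13 and Kcnk15, and among ion-activated ones Kcnn3, Kcnn4 and Kcnt1. The auxiliary genes in this state were Kcnab3, Kcne1, Kcne2, Kcne3, Kcnip4 and Kcnmb1. A low signal on this array is not evidence that a transcript is absent, since a weakly binding probe set gives the same reading.

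Over 10 comparisons between groups, 16 of the 75 genes (21.3%) were called at least once, against 37.8% of all genes. Among genes above the array median in at least 1 group, the shares were 58.3% (14 of 24) and 48%. This filter used the same values as the calls, and 20 of the 24 were above the median in some groups only. A dim gene enters through the group where it is high, so these 2 shares are a description and not a test. By class the called genes were 6 voltage-gated, 5 auxiliary, 4 two-pore, 1 ion-activated and no inward rectifier gene. They made 55 calls, 37 lower and 18 higher, with sizes from 1.00 to 5.16, and in none of the 55 did the arrays of the groups overlap. A call by size and adjusted p favours such a gap, so the gap adds no support to the calls. Of the 16 called genes, 11 had their highest mean in fresh cells. Neither count was made over all called genes, so neither is read as particular to the members. The comparisons share groups and so are not independent of each other. The median log2 change of the 75 genes lay between -0.10 and 0.11 over all contrasts, and that of all genes between -0.07 and 0.11.

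**Figure D1:**
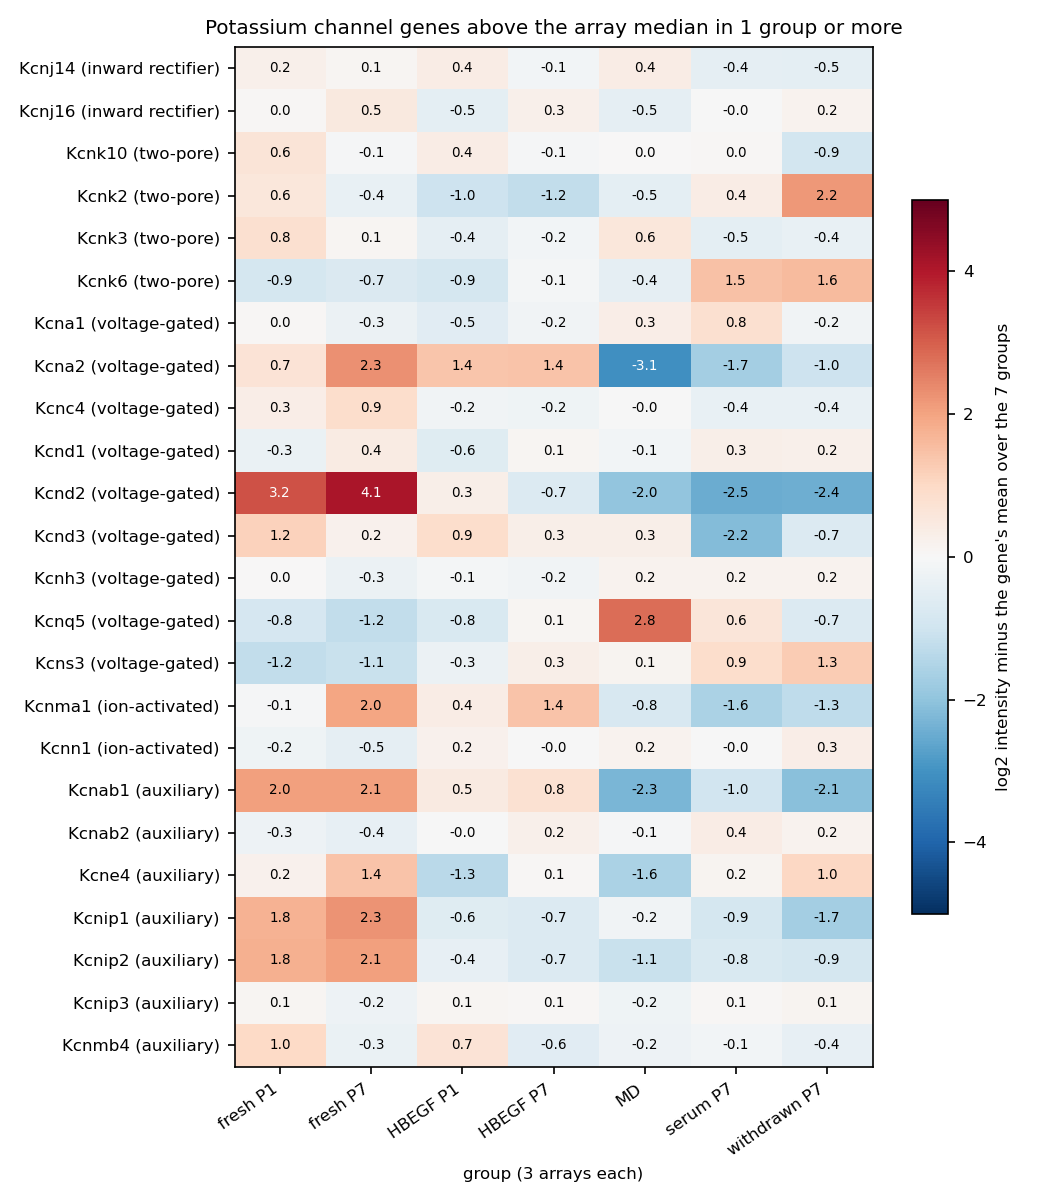
Mean log2 intensity of the 24 potassium channel genes above the array median in at least 1 group, drawn per group (3 arrays each) as the difference from the gene's own mean over the 7 groups; red is higher and blue is lower, and the numbers in the cells are these differences. Kcnd2, Kcnab1, Kcnip1 and Kcnip2 are highest in the fresh cells, Kcnq5 in MD cultures and Kcnk2 in withdrawn P7 cultures.

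The inward rectifier genes gave low signals, and 0 of the 15 was called in any comparison by limma, while 37.8% of all genes were called at least once. In a comparison between 0 and 5 of the 15 passed an unadjusted p of 0.05 in that fit. Of the 14217 genes, between 1935 and 7293 did. Kcnj10, which encodes the main inward rectifier of mature astrocytes, read 4.54, 4.65 and 4.74 on the fresh P1 arrays and 5.05, 5.26 and 5.01 on the fresh P7 arrays. In the 5 kinds of culture its group means lay between 4.45 and 4.57. The fresh P7 arrays were thus the highest of all, and they did not overlap with any other group. The log2 difference was 0.46 (SE 0.088, adjusted p = 0.00767 by limma) between fresh P7 and fresh P1 cells and -0.57 (adjusted p = 0.000143) between HBEGF P7 cultures and fresh P7 cells, so both passed the test of the fit but not the 2-fold limit. Between MD cultures and fresh P1 cells it was -0.11 (adjusted p = 0.334), and between serum P7 and HBEGF P7 cultures 0.04 (adjusted p = 0.802). The group means of Kcnj10 lay between -2.69 and -2.05 relative to the array median, near the low end of the array, where the size of a difference is less certain.

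Kcnj16, the partner subunit of Kcnj10, had group means of 6.85 in fresh P1 cells, 7.29 in fresh P7 cells, 6.32 in HBEGF P1, 7.05 in HBEGF P7, 6.34 in MD, 6.78 in serum P7 and 6.99 in withdrawn P7 cultures. It was above the array median in fresh P7 cells alone. Within the withdrawn group the arrays read 6.38, 6.43 and 8.17, so 1 array was far above the other two. It was not called in any comparison; the MD to fresh P1 difference was -0.50 (SE 0.315, adjusted p = 0.229), and the difference of HBEGF P1 cultures from fresh P1 cells -0.53 (adjusted p = 0.292). A second probe set of the gene fell by 2.11 between MD cultures and fresh P1 cells (adjusted p = 0.00511), so the reading for Kcnj16 depends on the probe set. Kcnj14, a brain inward rectifier, ran from 6.69 in withdrawn P7 to 7.56 in MD cultures and was the only other member of the class above the median in some group. Kcnj15 was likewise called through a second probe set alone, with -1.02 between MD and HBEGF P1 cultures, -1.16 between serum P7 and HBEGF P7 cultures and -1.19 between withdrawn P7 and HBEGF P7 cultures, while its main probe set gave 0.45, 0.17 and 0.28.

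**Figure D2:**
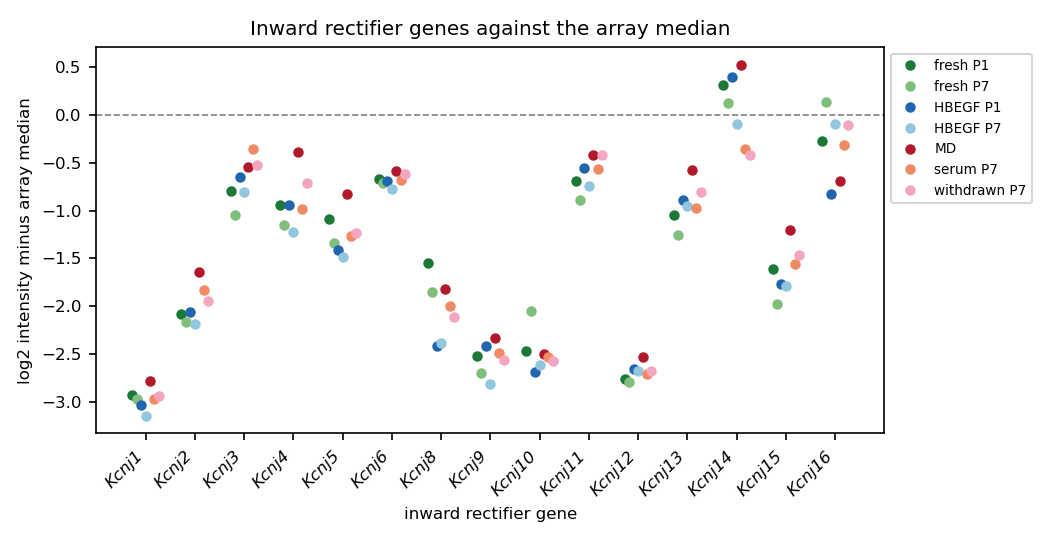
Group means of the 15 inward rectifier genes on the log2 scale minus the mean array median of the group (dashed line at 0); each point is 1 group of 3 arrays. Kcnj14 is above the median in 4 groups and Kcnj16 in fresh P7 cells alone, and the other 13, with Kcnj10 among them, stay below it in all 7.

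Kcnd2, a pore-forming Kv4 subunit, had the widest range of the members, 6.59 between its highest and lowest group means, followed by Kcna2 (5.36), Kcnab1 (4.34), Kcnq5 (4.03) and Kcnip1 (3.93). Kcnd2 was at 11.15, 10.50 and 10.70 on the fresh P1 arrays and 11.91, 11.54 and 11.60 on the fresh P7 arrays. It was at 8.14, 7.67 and 7.89 in HBEGF P1 and 7.07, 6.89 and 6.73 in HBEGF P7 cultures. In the other cultures it was at 5.94, 5.33 and 5.58 (MD), 5.11, 4.99 and 5.18 (serum P7) and 5.34, 5.27 and 4.90 (withdrawn P7). The order of the groups was thus fresh P7, fresh P1, HBEGF P1, HBEGF P7, and then the 3 groups that had seen serum, whose arrays partly overlap and of which MD and serum P7 cultures differed by less than the 2-fold limit. Kcnd2 fell 7.37-fold in HBEGF P1 cultures against fresh P1 cells (log2 change -2.88, SE 0.188, adjusted p = 1.45e-08) and 27.5-fold in HBEGF P7 cultures against fresh P7 cells (-4.78, adjusted p = 1.69e-11). It fell 35.8-fold in MD cultures against fresh P1 cells (-5.16, adjusted p = 6.3e-12), the largest change of any member. Its second probe set gave -4.40 and -5.11 in the last 2 of these contrasts and was also called there.

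KChIPs bind the Kv4 subunits, carry them to the membrane and shape their inactivation. Kcnip1 was at 9.61, 9.76 and 9.60 in fresh P1 and 10.47, 10.28 and 9.71 in fresh P7 cells, and every culture array was lower, from 6.17 to 7.83. Kcnip2 was at 7.82, 9.24 and 8.86 in fresh P1 and 9.11, 8.87 and 8.75 in fresh P7 cells, with all culture arrays between 5.49 and 6.62. Kcnip1 fell by 2.36 (SE 0.297, adjusted p = 2.61e-05) and Kcnip2 by 2.21 (SE 0.259, adjusted p = 1.29e-05) from fresh P1 cells to HBEGF P1 cultures. The falls from fresh P7 cells to HBEGF P7 cultures were 2.94 (adjusted p = 1.94e-06) and 2.74 (adjusted p = 9.52e-07). Neither differed by a called amount between serum P7 and HBEGF P7 cultures (-0.19 and -0.08). Each of these genes has other probe sets. A second one of Kcnip1 fell by 1.66 in HBEGF P7 cultures, and one of Kcnip2 by 1.06 and 1.09 in HBEGF P1 and HBEGF P7 cultures, while the dimmest ones (means 4.27 and 5.10 over all arrays) gave 0.34 and 0.24 in MD cultures against fresh P1 cells, where the main ones gave -1.92 and -2.88. Kcnip3 stayed between 7.98 and 8.36 in all groups and was not called.

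DPP6, encoded by Dpp6, which is no Kcn gene, is another auxiliary protein of Kv4 channels. Its transcript was at 10.30, 10.36 and 10.29 in fresh P1 cells and 9.91, 9.89 and 9.51 in HBEGF P1 cultures, which do not overlap but differ by less than 1, and at 5.87, 5.89 and 5.99 in MD cultures, far below both. It fell by 4.40 in MD cultures against fresh P1 cells (adjusted p = 5.1e-11) and by 3.30 in serum P7 against HBEGF P7 cultures (adjusted p = 2.84e-08). At P7 it was at 10.86, 10.52 and 10.53 in fresh cells and 8.74, 9.20 and 8.84 in HBEGF cultures, without overlap, a fall of 1.71 (adjusted p = 7.37e-06). Dpp10, its relative, went the other way in HBEGF: it was between 4.72 and 5.59 on all fresh arrays and between 6.39 and 7.48 on all HBEGF arrays, and it rose by 1.81 (adjusted p = 2.33e-05) at P1 and 1.90 (adjusted p = 1.03e-05) at P7. Of the other Kv4 genes, Kcnd1 lay between 6.90 and 7.88 in all groups and was not called, and Kcnd3 was at 9.10 in fresh P1 cells, 8.82 in HBEGF P1, 8.22 in MD, 5.78 in serum P7 and 7.25 in withdrawn P7 cultures. Like Kcnd2, Kcnd3 fell in serum P7 against HBEGF P7 cultures (-2.46, and -1.81 for Kcnd2).

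**Figure D3:**
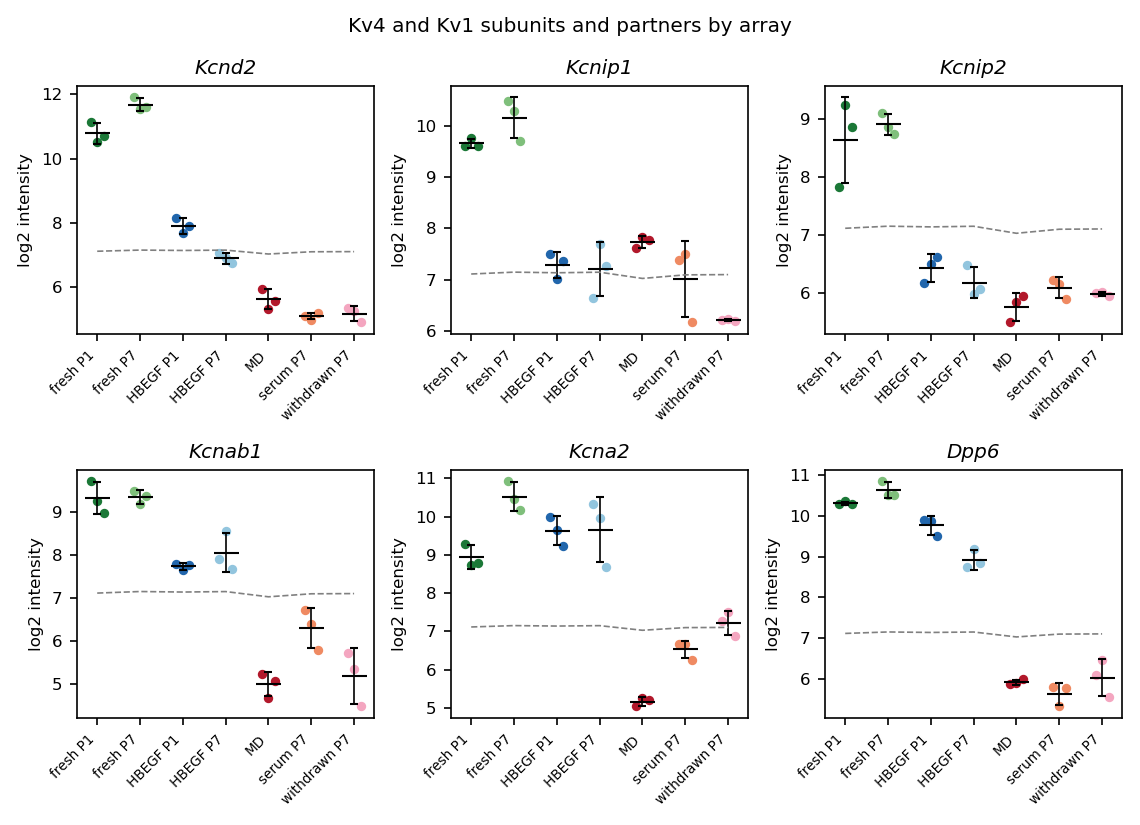
Log2 intensity of Kcnd2, Kcnip1, Kcnip2, Kcnab1, Kcna2 and Dpp6 on each array (points), with group mean and SD (bars, n = 3) and the mean array median of each group (dashed line). Kcnd2, Kcnip1 and Kcnip2 drop between fresh cells and all cultures; Kcna2 and Dpp6 are above the array median in both HBEGF groups and below it in MD and serum P7 cultures, and Dpp6 is lower in HBEGF P7 cultures than in fresh P7 cells.

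Kcna2, a Kv1 delayed rectifier subunit, and Kcnab1, a Kv beta subunit that binds Kv1 channels, followed other orders. Kcna2 was at 9.30, 8.73 and 8.79 in fresh P1 cells, 10.93, 10.47 and 10.17 in fresh P7 cells, 10.00, 9.65 and 9.24 in HBEGF P1 and 10.33, 9.96 and 8.69 in HBEGF P7 cultures. In MD cultures it was at 5.04, 5.26 and 5.19, in serum P7 cultures at 6.66, 6.66 and 6.26, and in withdrawn P7 cultures at 7.27, 7.50 and 6.88. All arrays of the HBEGF and fresh groups were therefore above all arrays of the 3 groups that had seen serum. Kcnab1 had means of 9.31 and 9.34 in fresh P1 and fresh P7 cells, 7.73 and 8.05 in the HBEGF cultures, 6.30 in serum P7, 5.19 in withdrawn P7 and 5.00 in MD cultures. It was called in 8 of the 10 comparisons, more than any other member. The second probe sets of Kcna2 and Kcnab1, at means of 5.70 and 6.22 and below the array median in all groups, showed none of these changes (0.14 and -0.46 between MD cultures and fresh P1 cells).

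Kcnd2, Kcnab1, Kcna2 and Kcnip2 had the 4 largest falls between fresh P1 cells and MD cultures, and the 250 bases before their annotated starts are shown so that the promoter-proximal sequence of the genes that fell most can be read beside their values. They are read from RefSeq on build GRCr8, on the gene's own strand, at chr4:50742235-50742484 (+) for Kcnd2, chr2:151614301-151614550 (+) for Kcnab1, chr2:197393280-197393529 (+) for Kcna2 and chr1:254613899-254614148 (-) for Kcnip2. Capitals mark matches, on either strand, to GGGCGG (the GC box), TGACG (the core of the cyclic AMP response element) or TATAAA (the TATA box).
Kcnd2: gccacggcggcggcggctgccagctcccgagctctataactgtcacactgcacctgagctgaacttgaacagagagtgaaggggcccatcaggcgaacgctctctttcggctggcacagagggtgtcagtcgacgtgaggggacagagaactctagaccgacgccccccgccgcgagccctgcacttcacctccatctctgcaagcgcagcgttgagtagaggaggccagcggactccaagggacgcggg
Kcnab1: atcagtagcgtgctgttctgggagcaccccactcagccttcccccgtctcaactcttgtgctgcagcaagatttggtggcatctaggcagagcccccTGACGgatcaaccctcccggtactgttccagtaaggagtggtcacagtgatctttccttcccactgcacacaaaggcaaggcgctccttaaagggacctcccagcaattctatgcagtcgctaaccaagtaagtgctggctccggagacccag
Kcna2: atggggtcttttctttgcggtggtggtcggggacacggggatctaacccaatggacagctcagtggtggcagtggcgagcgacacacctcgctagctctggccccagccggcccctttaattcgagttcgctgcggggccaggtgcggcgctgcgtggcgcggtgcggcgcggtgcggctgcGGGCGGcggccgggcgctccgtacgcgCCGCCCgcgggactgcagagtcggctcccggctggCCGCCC
Kcnip2: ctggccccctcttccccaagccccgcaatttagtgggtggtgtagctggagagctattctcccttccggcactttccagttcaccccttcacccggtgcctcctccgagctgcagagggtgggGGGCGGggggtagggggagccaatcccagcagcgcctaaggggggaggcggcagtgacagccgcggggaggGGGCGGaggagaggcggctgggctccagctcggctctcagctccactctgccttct

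The window of Kcnd2 holds none of the 3 motifs, that of Kcnab1 holds 1 TGACG, that of Kcna2 3 GC boxes (the capitals CCGCCC are the motif on the opposite strand) and that of Kcnip2 2. No TATAAA occurs in these 4. The matches shown do not overlap. The windows of Kcna2 and Kcnd2 hold 33 and 20 CpG pairs and those of Kcnip2 and Kcnab1 12 and 7, against a median of 5 over all windows. GGGCGG occurs in 30.5% of the 33469 RefSeq windows of this length and in 55.2% of the 58 windows of the 52 members with an entry. TGACG occurs in 18.2% and 20.7%, and TATAAA in 12.9% and 3.45%. A match is a string of letters and not a binding site, and these arrays hold no measure of binding.

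A small set of potassium channel genes was lower in HBEGF cultures than in fresh cells at both ages, with called shares near those of all genes. Time in culture, the medium with HBEGF and a changed mix of cells cannot be told apart here. At P1, 18 of the 75 and 5068 of the 14217 genes passed an unadjusted p of 0.05 by limma in either direction. By the call 6 of the 75 fell and 0 rose, 8% of the members. Of all genes 8.87% were called, 4.38% higher and 4.49% lower. The members were Kcnd2, Kcnip1, Kcnip2, Kcnab1 (-1.58, adjusted p = 0.00103 by limma), Kcne4 (-1.56, adjusted p = 0.00193) and Kcnk3 (-1.24, adjusted p = 7.87e-05). At P7, 6 fell and 1 rose, 9.33% of the members, while 10.3% of all genes were called, 4.78% higher and 5.51% lower. The first 5 of the genes lowered at P1 fell at P7 too, with -1.29 for Kcnab1 and -1.38 for Kcne4, an accessory subunit that slows or blocks Kv channels. Kcnc4, a fast Kv3 subunit, fell by 1.08 (adjusted p = 0.000245), and Kcnq5, a subunit of the slow M-type current, rose by 1.31 (adjusted p = 0.0258). Without the second HBEGF P7 array the fall of Kcne4 was 0.89, under the limit, and the differences of Kcnma1 and Kcns3 became calls (-1.47, adjusted p = 0.00232, and 2.01, adjusted p = 0.00955). The fall of Kcnc4 slipped under the limit without fresh P7 array 1 (-0.99) or HBEGF P7 array 3 (-0.96), and the rise of Kcnq5 was not called without fresh P7 array 2 or 3 or HBEGF P7 array 1 or 2 (1.04, 1.29, 1.12 and 1.20, adjusted p 0.0678 to 0.125).

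Of the other genes followed in all comparisons, Kcnk1 differed by 0.13 and 0.13, Kcnk2 by -1.58 and -0.83, Kcnma1 by 0.45 and -0.55 and Kcnj16 by -0.53 and -0.23 at P1 and P7, all with adjusted p of 0.104 or more. For Kcnk2 at P1 the adjusted p was 0.00499 without serum P7 array 3, which is in neither group but enters the common spread, and 0.00202 in a fit of only the groups compared. Kcnma1 was called at P7 without HBEGF P7 array 2 (-1.47), and the sign of the Kcnk1 difference turned without HBEGF P1 array 1 at P1 (-0.030) and without HBEGF P7 array 1 at P7 (-0.0022). The summed level of the 18 neuron markers was 13.19 to 13.30 in fresh P1 cells and 14.00 to 14.25 in HBEGF P1 cultures, and that of the 7 oligodendrocyte progenitor markers 14.67 to 14.76 and 14.88 to 15.29; 1 of the 18 and 3 of the 7 rose and 0 fell. At P7 the neuron sums were 12.71 to 13.03 in fresh cells and 13.29 to 14.02 in HBEGF culture, and the progenitor sums 14.58 to 14.88 and 14.33 to 15.30. The part of these lists in the falls was not tested.

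The fall of Kcnd2 was larger at P7. The difference between the culture responses (HBEGF culture minus fresh cells, P7 minus P1) was -1.90 (SE 0.266, adjusted p = 0.00187), and Kcnd2 was the 1 of the 75 genes called in this contrast, 1.33% of them against 0.816% of all genes (0.162% higher and 0.654% lower). The contrast combines a level that was 0.90 higher in fresh P7 than in fresh P1 cells (adjusted p = 0.0141, under the 2-fold limit) with one that was 1.00 lower in HBEGF P7 than in HBEGF P1 cultures. With the replicate number as a block, Kcna2 was also called (-1.55, adjusted p = 0.0367, against 0.143 without the block). Kcna2 was likewise called without HBEGF P7 array 1 (-1.89) and Kcnma1 without HBEGF P7 array 2 (-1.93).

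**Figure D4:**
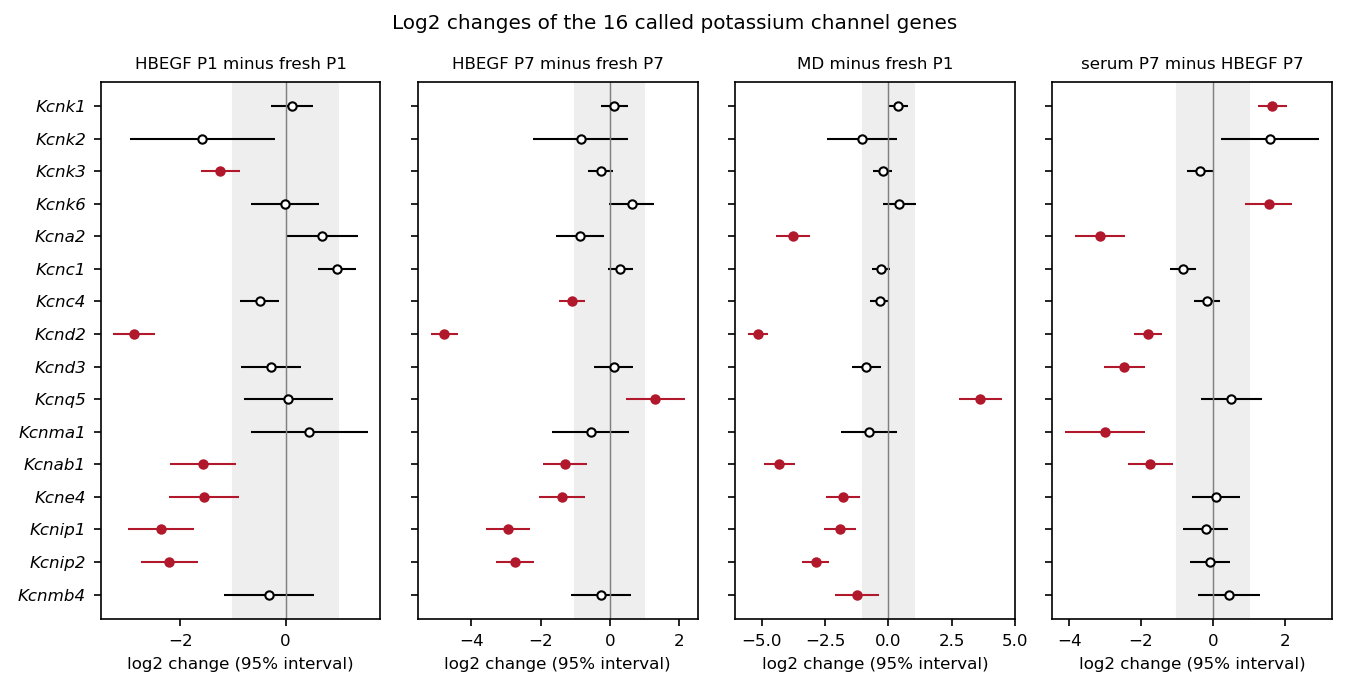
Log2 changes with 95% intervals of the limma fit for the 16 called potassium channel genes in 4 comparisons; filled red points are called, open points are not, and the grey band marks changes under 2-fold. The horizontal scales differ between panels. Kcnd2 lies furthest to the left in the first 3 panels and Kcna2 in the last.

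MD cultures differed from fresh P1 cells in 8 of the 75 genes, 7 lower and 1 higher, 10.7% against 19.6% of all genes (10.1% higher and 9.43% lower). Besides Kcnd2, Kcnip1 (-1.92, adjusted p = 6.71e-05) and Kcnip2 (-2.88, adjusted p = 1.97e-07), the lower ones were Kcnab1 (-4.31, SE 0.297, adjusted p = 9.51e-09), Kcna2 (-3.77, SE 0.326, adjusted p = 1.2e-07), Kcne4 (-1.79, adjusted p = 0.00024) and Kcnmb4 (-1.24, adjusted p = 0.0232). Kcnmb4 lost its call without fresh P1 array 1, MD array 2 or MD array 3, with changes of -1.15, -1.22 and -1.12. The gene that rose was Kcnq5. It was at 9.96, 9.48 and 9.55 on the MD arrays, above all other 18 arrays, of which the highest, at 8.08, was a serum P7 array. Its rise was 12.5-fold against fresh P1 cells (3.64, SE 0.405, adjusted p = 2.02e-06). Its other probe sets, at means of 6.62 and 6.41 and below the median in all groups, gave 0.31 and 0.15. Kcnk1 differed by 0.36, Kcnk2 by -1.05, Kcnma1 by -0.76 and Kcnj10 by -0.11 in this comparison, with adjusted p of 0.144 or more. The adjusted p of Kcnk2 was 0.0319 without serum P7 array 3 and 0.00977 in a fit of only the groups compared. The progenitor marker sum was 12.67 to 13.29 in MD cultures, below its range in fresh P1 cells, and the astrocyte sum 16.26 to 16.55 against 17.07 to 17.19. Of the 12 fibroblast and meningeal markers 6 were lower and 1 higher. The sum of 10 mural cell markers was 15.05 to 15.11 in MD cultures against 11.47 to 11.62. Of these 10, 2 were called higher and 2 lower, and the brightest, Tagln, had means of 14.95 against 10.25. The part of these lists in the changes was not tested.

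MD and HBEGF P1 cultures, both grown for 7 days from P1 tissue, differed in 6 of the 75 genes, 2 higher and 4 lower, 8% against 18.4% of all genes (8.81% higher and 9.57% lower). Kcna2 was 22.1-fold lower in MD cultures (-4.47, SE 0.326, adjusted p = 3.27e-08), Kcnab1 6.64-fold lower (-2.73, adjusted p = 2.05e-06), Kcnd2 4.87-fold lower (-2.28, adjusted p = 1.17e-07) and Kcnc1, a Kv3 subunit below the array median in all groups, 2.39-fold lower (-1.26, adjusted p = 2.19e-05). Kcnq5 was higher by 3.59 (adjusted p = 2.97e-06) and Kcnk3, an acid-sensitive leak channel, by 1.01 (adjusted p = 0.000209), a value at the limit that was 0.83 without MD array 1 and 0.87 without HBEGF P1 array 3. Kcnk1 (0.24), Kcnk2 (0.53), Kcnj10 (0.08) and Kcnj16 (0.02) were not called, nor was Kcnma1 (-1.21, adjusted p = 0.0825), although without HBEGF P7 array 2, which is in neither group but enters the common spread, its adjusted p was 0.0024. Without HBEGF P1 array 2 Kcnmb4 was called (-1.21, adjusted p = 0.0477), and the difference of Kcnj16 turned sign without MD array 1 (-0.092) or with the mean of its probe sets (-0.61). Of the 12 fibroblast and meningeal markers 8 were lower in MD cultures and 1 higher (median -2.10), and 4 of the 7 progenitor and 8 of the 17 astrocyte markers were lower. The part of these lists was not tested. The 2 kinds of culture also differ in panning, in serum and in HBEGF, which cannot be told apart here.

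Panned P7 cells grown in serum differed from those grown in HBEGF in 7 of the 75 genes, 5 lower and 2 higher in serum. This was 9.33% against 9.3% of all genes (4.83% higher and 4.47% lower). The 2 media differ both in serum and in HBEGF, which cannot be told apart here. The genes that fell were Kcna2 (-3.13, SE 0.326, adjusted p = 7.22e-06), Kcnma1 (-3.00, SE 0.525, adjusted p = 0.000709), Kcnd3 (-2.46, SE 0.272, adjusted p = 1.24e-05), Kcnd2 (-1.81, adjusted p = 7.1e-06) and Kcnab1 (-1.75, adjusted p = 0.000576). Kcnma1 encodes the pore of the BK channel, and was at 6.56, 9.46 and 6.80 in HBEGF P7 cultures and 4.80, 4.65 and 4.36 in serum P7 cultures. The groups do not overlap, but the second HBEGF P7 array is far above the other two. The same array had the lowest fibroblast and meningeal marker sum of its group (13.10), and the part of this was not tested. The other probe sets of Kcnma1, near 4.52 and 4.72 throughout, gave 0.01 and -0.04. Kcnd3 was at 8.22, 8.03 and 8.47 in HBEGF P7 and 5.32, 5.37 and 6.64 in serum P7 cultures, and a second probe set fell by 2.25 (adjusted p = 0.000158). In MD cultures Kcnd3 was at 8.66, 8.22 and 7.78, above all 3 serum P7 arrays (serum P7 minus MD -2.44, adjusted p = 6.55e-06).

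The 2 genes that were higher in serum P7 than in HBEGF P7 cultures encode two-pore leak channels. Kcnk1, a weakly rectifying leak channel of astrocytes, was at 5.57, 4.94 and 5.40 in HBEGF P7 cultures and 7.10, 6.94 and 6.84 in serum P7 cultures, a rise of 3.16-fold (1.66, SE 0.188, adjusted p = 1.59e-05). The serum P7 arrays were the highest of all 21, and even so their mean stayed below the array median. Kcnk6 was at 6.45, 5.31 and 6.08 against 7.04, 7.43 and 8.03 (1.55, SE 0.308, adjusted p = 0.0018). Kcnk2, a leak channel opened by stretch, warmth and lipids, read 7.04, 6.19 and 8.04 in HBEGF P7 cultures and 7.46, 7.66 and 10.93 in serum P7 cultures, which overlap, and its difference of 1.59 did not pass (SE 0.651, adjusted p = 0.0954). Its high reading came from the third serum P7 array, which had the highest oligodendrocyte and fibroblast marker sums of that group (14.38 and 16.93). The same array had the highest endothelial sum of the group (11.14 against 9.80 and 9.99) and the lowest astrocyte sum (17.15 against 17.38 and 17.32). The part of these lists was not tested. Of the oligodendrocyte markers, Cldn11 varied most in that group (SD 1.97). Without HBEGF P7 array 3 or serum P7 array 1 the adjusted p of Kcnk2 was 0.0448 and 0.0333, while without serum P7 array 3 the difference was 0.47 (adjusted p = 0.484). Of the 12 fibroblast and meningeal markers 5 were higher and 0 lower in serum P7 cultures, and their part in these changes was not tested. Kcnj10 (0.04) and Kcnj16 (-0.27) did not differ by a called amount.

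**Figure D5:**
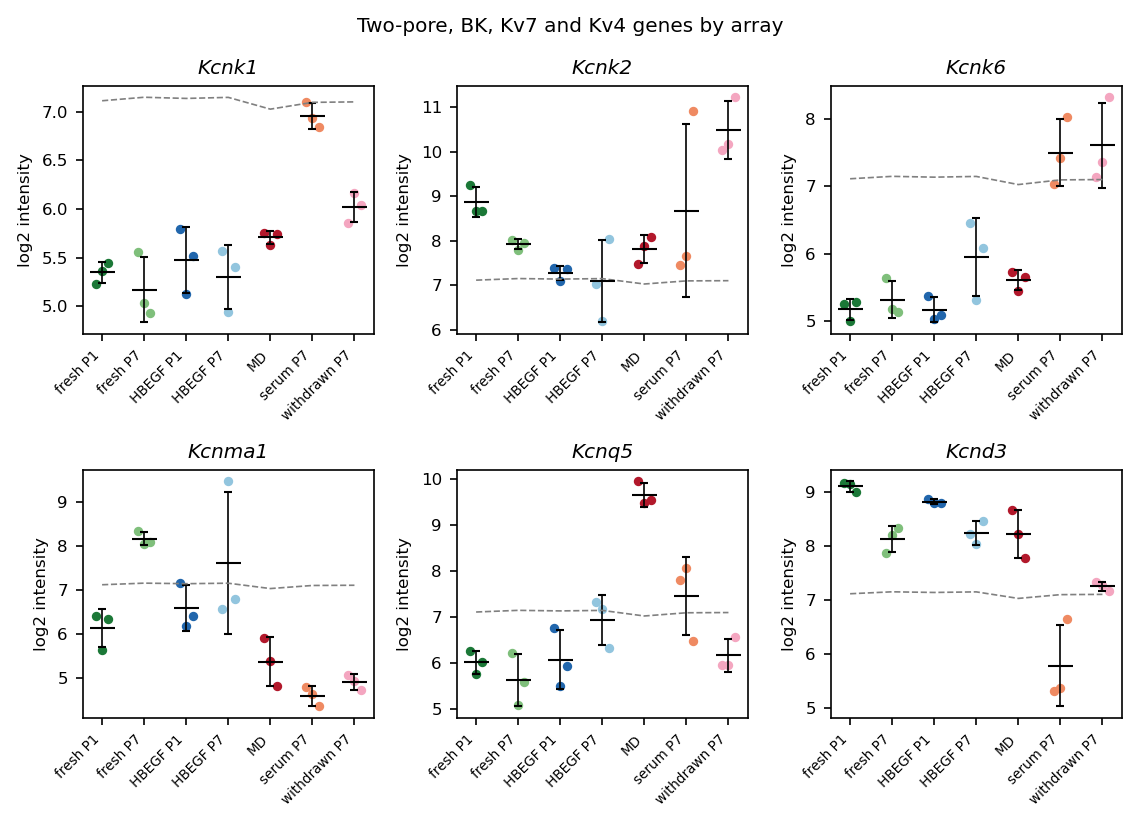
Log2 intensity of Kcnk1, Kcnk2, Kcnk6, Kcnma1, Kcnq5 and Kcnd3 on each array (points), with group mean and SD (bars, n = 3) and the mean array median of each group (dashed line). Kcnk1 and Kcnk6 are higher in serum P7 cultures than in HBEGF P7 cultures, Kcnq5 is highest in MD cultures, and 1 array each of Kcnk2 (serum P7) and Kcnma1 (HBEGF P7) lies far from the rest of its group.

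Panned P7 cells in serum and MD cultures had both seen 10% serum for 7 days, but differed in 8 of the 75 genes, 5 higher and 3 lower in the panned cells, 10.7% against 13.9% of all genes (7.58% higher and 6.37% lower). Higher were Kcnk6 (1.90, adjusted p = 0.000212), Kcne4 (1.72, adjusted p = 0.000635), Kcna2 (1.36, adjusted p = 0.00481), Kcnab1 (1.30, adjusted p = 0.00348) and Kcnk1 (1.25, adjusted p = 0.000111). Lower were Kcnd3, Kcnq5 (-2.20, adjusted p = 0.000637) and Kcnk3 (-1.08, adjusted p = 0.000209). The fall of Kcnk3 was 0.90 without MD array 1. Kcnd2 differed by -0.53 (adjusted p = 0.0481), Kcnma1 by -0.77 and Kcnk2 by 0.86, and Kcnj10 and Kcnj16 by 0.04 and 0.44. Without serum P7 array 3 the sign of the Kcnk2 difference turned (-0.26, adjusted p = 0.735). Of the 12 fibroblast and meningeal markers 11 were higher in the panned cells (median 4.22), with sums of 15.87 to 16.93 against 12.83 to 12.95, and 9 of the 17 astrocyte markers were higher. The part of these lists was not tested. These groups differ in age at isolation as well as in panning.

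After serum was replaced by HBEGF for 7 more days, 2 of the 75 genes were called against serum P7 cultures, 1 higher and 1 lower. This was 2.67% against 4.5% of all genes (2.24% higher and 2.26% lower). The change of medium and the 7 more days in culture cannot be told apart here. Kcnd3 rose from 5.32, 5.37 and 6.64 to 7.33, 7.28 and 7.16 (1.48, SE 0.272, adjusted p = 0.00365), without overlap and still below its HBEGF P7 arrays. Kcnab1 fell by 1.11 (adjusted p = 0.0308), a call that was lost without serum P7 array 1 or 2 or withdrawn array 2 or 3 (-0.90, -1.06, -1.19 and -0.76). Kcnd2 was not called: it differed by 0.08 (adjusted p = 0.901), with an interval of the difference from -0.32 to 0.47. With the replicate number as a block, Kcnq5 was called too (-1.29, adjusted p = 0.0346). Leaving out the third serum P7 array raised the count from 2 to 6, adding Kcnk2 (2.93, adjusted p = 0.000304), Kcnq5 (-1.78), Kcnip1 (-1.23) and Kcnk1 (-1.00). With that array in, Kcnk2 differed by 1.81 (adjusted p = 0.109), and with the mean of its probe sets by 1.24 (adjusted p = 0.0231). Kcnma1 (0.31), Kcnj10 (-0.04) and Kcnj16 (0.21) were not called, and the sign for Kcnj16 turned without withdrawn array 3 (-0.38).

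Withdrawn P7 and HBEGF P7 cultures ended in the same medium, and 6 of the 75 genes differed, 4 lower and 2 higher in withdrawn cultures. This was 8% against 11.7% of all genes (6.29% higher and 5.42% lower). Withdrawn cultures had 7 days in serum and 7 days after it, and HBEGF P7 cultures 7 days in all. Past serum and time in culture therefore cannot be told apart here. Kcnab1 (-2.85, SE 0.297, adjusted p = 1.01e-05), Kcnma1 (-2.69, adjusted p = 0.00159), Kcna2 (-2.45, adjusted p = 8.59e-05) and Kcnd2 (-1.73, adjusted p = 1.36e-05) were lower. Kcnk2 was at 10.05, 10.19 and 11.23 in withdrawn cultures, above its HBEGF P7 arrays and all fresh arrays, a difference of 10.5-fold (3.40, SE 0.651, adjusted p = 0.00139) from HBEGF P7 cultures. A second probe set of Kcnk2 gave 0.81, which passed the test but not the limit. Kcnk6 was higher by 1.66 (adjusted p = 0.00108). Kcnk1 differed by 0.72 (adjusted p = 0.0109), and Kcnj10 and Kcnj16 by 0.00 and -0.06. Several genes sat at the limit with sizes just under 1, among them Kcnc1 (-1.00), Kcnip1 (-0.99), Kcna6 (0.99), Kcnd3 (-0.99) and Kcne4 (0.98). Without HBEGF P7 array 1 the count was 10, with Kcnc1, Kcnip1, Kcna6 and Kcne4 added. The sum of the 12 fibroblast and meningeal markers was 13.10 to 15.69 in HBEGF P7 and 16.49 to 16.96 in withdrawn cultures, and that of the 13 microglial markers 9.49 to 12.12 and 11.46 to 13.39. Their part in the higher Kcnk2 and Kcnk6 was not tested.

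Between fresh P7 and fresh P1 cells 15 of the 75 and 2891 of the 14217 genes passed an unadjusted p of 0.05 by limma in either direction. By the call 3 of the 75 rose and 0 fell, 4% against 1.55% of all genes (1.37% higher and 0.183% lower). The 3 were Kcna2 (1.58, SE 0.326, adjusted p = 0.0127), Kcnma1 (2.02, SE 0.525, adjusted p = 0.045) and Kcne4 (1.21, adjusted p = 0.0467). Kcnma1 was at 6.40, 5.64 and 6.35 in fresh P1 and 8.32, 8.05 and 8.09 in fresh P7 cells, without overlap. The Kcna2 call was lost without fresh P1 array 2 or 3 or fresh P7 array 1 (adjusted p up to 0.0703), the Kcne4 call without any 1 of 16 arrays and the Kcnma1 call without any 1 of 15, with sizes that stayed between 1.03 and 1.46 for Kcne4 and 1.78 and 2.16 for Kcnma1. With the replicate block Kcne4 had an adjusted p of 0.0531. Microglial markers above the median numbered 6 in fresh P7 and 0 in fresh P1 cells, and 2 of the 13 were called higher and 0 lower. Of the 17 astrocyte markers 5 were called higher and 0 lower, with sums of 17.59 to 17.67 against 17.07 to 17.19. Of the 18 neuron markers 0 were called higher and 2 lower. The part of these lists was not tested. Kcnmb4, the BK beta subunit, went from 9.05 to 7.72 (-1.32, adjusted p = 0.0898), opposite in sign to its pore gene and not called; its adjusted p was 0.0495 without serum P7 array 3 and 0.00594 in a fit of only the groups compared. Kcnk2 differed by -0.94, Kcnk1 by -0.18 and Kcnj16 by 0.44.

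Between HBEGF P7 and HBEGF P1 cultures 2 of the 75 were called, 1 higher and 1 lower, 2.67% against 1.11% of all genes (0.753% higher and 0.359% lower). Kcnd2 was lower by 1.00 (adjusted p = 0.0124), at the limit, with 0.88, 1.00 and 0.92 without HBEGF P1 array 1, HBEGF P7 array 2 and HBEGF P7 array 3. Kcne4 was higher by 1.39 (adjusted p = 0.0377). With the replicate block its adjusted p was 0.0519, and leaving out any 1 of 11 arrays ended the call. Kcnk1 (-0.17), Kcnk2 (-0.19), Kcnma1 (1.02, adjusted p = 0.507), Kcnj10 (0.09) and Kcnj16 (0.74, adjusted p = 0.368) were not called. Without HBEGF P7 array 2 the difference was 0.26 for Kcnk2 and 0.0091 for Kcnk1, turned in sign.

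Several members above the median moved little. Kcnh3 lay between 7.90 and 8.37, Kcnab2 between 7.20 and 7.99 and Kcnn1, a small-conductance calcium-activated channel, between 6.85 and 7.62, and none of these 3 was called. Kcnk10, a two-pore relative of Kcnk2, was between 7.83 and 8.52 in 6 groups and at 7.81, 7.15 and 5.94 on the withdrawn P7 arrays. Kcna1 was highest in serum P7 cultures, at 7.55, 6.98 and 8.48.

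Kcns3, a silent Kv subunit that modifies Kv2 channels, was at 5.08 in fresh P1 and 5.20 in fresh P7 cells, while the culture means ran from 6.03 to 7.57. Its differences of 1.36 in MD cultures against fresh P1 cells (adjusted p = 0.0565) and 1.42 in HBEGF P7 cultures against fresh P7 cells (adjusted p = 0.0686) did not pass in the fit used throughout. The first was called under 5 of the 8 other settings (adjusted p from 0.000209 to 0.0495) and without HBEGF P7 array 2 or 3 or withdrawn array 3 (adjusted p = 0.0288, 0.0109 and 0.0418), none of which is in either group. The second was called without HBEGF P7 array 2 (2.01, adjusted p = 0.00955) and with low probe sets left out (adjusted p = 0.0492). Without HBEGF P7 array 3 Kcns3 was also called in serum P7 (1.35) and withdrawn P7 (1.74) against HBEGF P7 cultures.

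The genes that work with potassium channels, listed as pumps, cotransporters, gap junction proteins, anchoring proteins and channel subunits outside the Kcn family, numbered 31, of which 25 were measured. In HBEGF P1 cultures against fresh P1 cells 2 rose and 2 fell (16% against 8.87% of all genes), and at P7 1 rose and 3 fell (16% against 10.3%). Atp1b1, a beta subunit of the sodium pump, fell in both (-1.27, adjusted p = 0.0497, and -1.74, adjusted p = 0.00745), and so did Dlg4, a scaffold that clusters Kv1 and Kir channels (-1.64 and -1.62). In MD cultures 1 rose and 6 fell against fresh P1 cells (28% against 19.6%), and 1 rose and 5 fell against HBEGF P1 cultures (24% against 18.4%). Dtna, of the dystrophin complex that anchors Kir channels at astrocyte endfeet, fell in both (-1.53 and -2.35). Of the same list 1 rose and 5 fell in serum P7 against HBEGF P7 cultures (24% against 9.3%), where Atp1b1 rose by 1.98 (adjusted p = 0.0038) and Fxyd6, a pump regulator, fell by 1.84. After withdrawal 3 rose and 1 fell against serum P7 cultures (16% against 4.5%), and both genes turned back: Atp1b1 fell by 2.11 and Fxyd6 rose by 2.00. Not every gene of the list did so: Dpp6 had means of 8.93 in HBEGF P7, 5.63 in serum P7 and 6.03 in withdrawn P7 cultures. Gjb6, a gap junction gene, had means of 6.66 in serum P7 and 11.00 in withdrawn P7 cultures. Its serum P7 arrays read 3.80, 4.94 and 11.23, so they overlap with the withdrawn arrays. Withdrawn P7 cultures had 1 higher and 3 lower than HBEGF P7 cultures (16% against 11.7%), and serum P7 cultures 2 higher and 1 lower than MD cultures (12% against 13.9%), with the water channel gene Aqp4 higher by 1.45 and Atp1b2 by 1.35. None of the 25 was called for age in fresh cells or in HBEGF culture (all genes 1.55% and 1.11%). There 8 and 4 of the 25 passed an unadjusted p of 0.05 in the limma fit, against 2891 and 1935 of the 14217 genes. The median log2 change of the list ran from -0.42 in MD against HBEGF P1 cultures (all genes 0.09) to 0.39 in fresh P7 against fresh P1 cells (all genes -0.02).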

How the data were processed

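RNA of 21 samples was hybridised to Affymetrix rat genome arrays. The values that the authors deposited are linear intensities, 1 for each probe set of an array; RMA is named in the submitters' processing notes, with its software and version not given in the sources used here. RMA puts the arrays on a common distribution, so a shift of all genes in a group would not be seen. Per the labels, an RNeasy kit and the 3' IVT Express kit were used. Log2 of these intensities, from 10.0 to 37801, was fitted with limma 3.58.1 in R 4.3.3, with 7 group means over all 31042 probe sets (14 residual and 2.89 prior degrees of freedom, eBayes defaults). Benjamini-Hochberg adjustment ran within a comparison over all probe sets, and no low probe set was left out. The code was tested on simulated data.

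Gene symbols came from the platform annotation: 20826 probe sets had 1 symbol, 436 several and 9780 none. Of the members, 31 had several probe sets, 126 in all; of 65 pairs of a call and another probe set of the same gene, 50 had the same sign, 11 were also called and 2 went the opposite way past the adjusted p. The members and lists were chosen with earlier results of these data known. Genes were named by a rule: in the comparisons Kcnj10, Kcnj16, Kcnk1, Kcnk2, Kcnma1 and Kcnd2, at most 10 called members (largest changes first) and at most 4 called genes of the partner list, and levels of any member. Kcns3, Kcna1, Kcna6, Kcnip1 and other genes whose differences were not called, and changes of other probe sets, were named after their values were seen.

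P-values measure the spread between the samples labelled biological replicates; 3 arrays per group limit precision, and an exact permutation test of 3 against 3 cannot give a p under 0.1. The replicate numbers of the labels were checked as pairs through the correlation of deviations from the group means: all 3 exceeded 0.1 (0.157 to 0.588) in HBEGF P1 against fresh P1, HBEGF P7 against HBEGF P1, MD against fresh P1, MD against HBEGF P1 and withdrawn P7 against serum P7, where the numbers were taken as pairs and the replicate block as a second fit. Alternatives were quantile normalization, a common array median, a pseudocount of 32, leaving out low probe sets, the mean of a gene's probe sets, a trended robust eBayes, only the groups compared, and leaving out each array. Promoter windows came from RefSeq (GRCr8), which holds 52 of the 75 members by symbol.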

Additional observations from a re-analysis of the deposited data

Results flagged for a closer look

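The culture response of Kcnd2, the Kv4 pore gene, differed between the ages by the interaction term of the limma fit: the log2 change from fresh cells to HBEGF culture at P7, minus that at P1, was -1.90 (adjusted p = 0.00187), the fall being 2.88 at P1 and 4.78 at P7. All 3 fresh P7 arrays (11.54 to 11.91) were above the fresh P1 arrays (10.50 to 11.15), and all 3 HBEGF P7 arrays (6.73 to 7.07) were below the HBEGF P1 arrays (7.67 to 8.14). The call of Kcnd2 was kept with the replicate block. A test of the gap of 1 array to its group was not made, since the groups hold 3 arrays.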

How the results depend on the processing

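None of the calls changed sign under the alternatives run. Of the 56 calls (55 in the comparisons of groups and 1 in the difference of culture responses), 44 were kept without any 1 array and 12 were lost without some array. Quantile normalization kept 53, a common array median 54, a pseudocount of 32 44, leaving out low probe sets 53, the replicate block 54, the mean of a gene's probe sets 38, trended robust eBayes 56 and a fit of only the groups compared 46. Under all of these 30 were kept. Among the calls lost with the mean of probe sets were that of Kcnc4 and those of Kcnk3. The Kcnk3 calls were in HBEGF P1 cultures against fresh P1 cells, MD against HBEGF P1 and serum P7 against MD cultures.

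The count of called members moved by more than 1.5 times in these cases. For fresh P7 against fresh P1 cells it went from 3 to 1 with a common array median and to 1 with the mean of probe sets, and for HBEGF P7 cultures against fresh P7 cells from 7 to 4 with the mean of probe sets. For HBEGF P7 against HBEGF P1 cultures it went from 2 to 1 with quantile normalization, the replicate block or the mean of probe sets and to 0 with the pseudocount or only the groups compared. For withdrawn P7 against serum P7 cultures it went from 2 to 1 with the pseudocount or the mean of probe sets and to 0 with only the groups compared, and for serum P7 against MD cultures from 8 to 4 with the pseudocount or the mean of probe sets. For the difference of culture responses it went from 1 to 2 with the replicate block. The block changed the call of Kcne4 in 2 comparisons, of Kcnq5, of Kcna2 and of Kcnk2 (serum P7 against HBEGF P7 cultures, adjusted p = 0.0495), and of no other member. In comparisons whose numbers do not pair the samples the block count was 2 for fresh P7 against fresh P1 cells, 7 for HBEGF P7 cultures against fresh P7 cells, 8 for serum P7 and 6 for withdrawn P7 against HBEGF P7 cultures, and 8 for serum P7 against MD cultures. The mean of probe sets takes in other probe sets of a gene. Of the 65 pairs of a call and another probe set, the other one was below the median in all groups in 50. It was also called in 11. The cause of these shifts was not tested.

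Leaving out 1 array at a time gave 0 to 3 called members for fresh P7 against fresh P1 cells, 6 to 7 for HBEGF P1 cultures against fresh P1 cells, 6 to 7 for HBEGF P7 cultures against fresh P7 cells and 0 to 2 for HBEGF P7 against HBEGF P1 cultures. It gave 7 to 9 for MD cultures against fresh P1 cells, 5 to 7 for MD against HBEGF P1 cultures, 7 to 9 for serum P7 against HBEGF P7 cultures, 1 to 6 for withdrawn P7 against serum P7 cultures, 6 to 10 for withdrawn P7 against HBEGF P7 cultures, 7 to 8 for serum P7 against MD cultures and 1 to 2 for the difference of culture responses. Among uncalled differences of the 6 genes followed, 31 values over 15 differences changed sign. With the mean of probe sets Kcnma1 in HBEGF P1 cultures against fresh P1 cells was -0.040 and Kcnj16 in MD against HBEGF P1 cultures -0.61. With quantile normalization Kcnj10 was -0.011 in MD against HBEGF P1 and -0.017 in serum P7 against HBEGF P7 cultures, and Kcnk1 -0.050 in the difference of culture responses, where the pseudocount gave -0.0083. With a common array median Kcnj10 was 0.046 in withdrawn P7 against HBEGF P7 and -0.028 in serum P7 against MD cultures. Without 1 array, Kcnk1 ranged from -0.030 to 0.31 in HBEGF P1 cultures against fresh P1 cells, -0.0022 to 0.32 in HBEGF P7 cultures against fresh P7 cells, -0.35 to 0.0091 in HBEGF P7 against HBEGF P1 cultures and -0.17 to 0.20 in the difference of culture responses. Kcnk2 ranged from -0.67 to 0.26 in HBEGF P7 against HBEGF P1 and from -0.26 to 1.47 in serum P7 against MD cultures. Kcnj16 ranged from -0.092 to 0.11 in MD against HBEGF P1, -0.38 to 0.52 in withdrawn P7 against serum P7 and -0.65 to 0.25 in withdrawn P7 against HBEGF P7 cultures. In the last 2 comparisons Kcnd2 ranged from -0.0098 to 0.21 and Kcnj10 from -0.028 to 0.026.

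Signals near the low end of the array limit what can be seen for the 51 members below the array median.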
